A study of Mus musculus with 96 samples.

Results

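The genes described here serve drug and haem metabolism by the cytochromes P450, and they fall into 3 roles. Por and Alas1 supply electrons and haem, Nr1i2, Nr1i3 and Ahr encode receptors that sense foreign compounds, and Abcb1a, Abcb1b, Abcc2, Abcc3 and Abcg2 encode pumps that export drugs and conjugates. These 10 of the 56748 genes in the deposited count table were found by gene name. They were chosen by earlier readings of these same counts, in which male livers under the 2 diets were compared, so member values from that contrast are given as a description without a test.

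Cytochromes P450 of the endoplasmic reticulum take their electrons from NADPH through a shared reductase, the product of Por. Each of them needs haem, and Alas1 encodes the first and rate-limiting enzyme of haem synthesis outside red cells. In hepatocytes the pregnane X receptor (Nr1i2), the constitutive androstane receptor (Nr1i3) and the aryl hydrocarbon receptor (Ahr) switch on genes of oxidation, conjugation and export, and the pumps move the products into bile, into blood or, at the blood-brain barrier, back out of the brain.

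Bulk poly(A) RNA was sequenced from liver, muscle and cerebral cortex of mice fed ad libitum (AL) or kept on intermittent fasting (IF), in which food was withheld for 16 h of each day. Mice 1 to 16 are labelled male, and mice 25 to 40 are labelled female, with 8 AL and 8 IF mice in each set and 1 library per mouse and tissue. The males were C57BL/6 mice that entered the diets at 6 weeks of age and stayed on them for 4 months. IF males were without food from the afternoon to the morning, so they were fed in the light phase. Males were killed between early morning and noon and perfused, at hours that the authors describe as the end of the fasting window. Those hours run past the daily return of food, and the hour for each mouse is not stated. AL males had unlimited access to food. For the female set the labels give tissue, sex and diet, so its strain, age, time on diet and hour of sampling are not stated here, and sex cannot be told apart from the set of mice. Total counts of the 95 libraries used lay between 26097314 and 49838004, with a median of 36132954.

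The cortex library of AL mouse 1 went against its label and was left out of every comparison, except in alternative fits that are named as keeping it. Labelled male, it held 213 CPM (counts scaled to a common library total) of Xist, the RNA of the inactive X chromosome, and 0 CPM of the Y-linked genes Ddx3y and Uty. Its closest library was that of IF mouse 40 of the female set. Male AL cortex therefore has 7 mice here. Xist and the Y-linked genes matched the labelled sex in the other libraries. The labelled tissues also matched their markers. Summed CPM of 6 hepatocyte genes, led by Alb, was at least 37703 in liver and at most 4.42 in muscle and cortex. Muscle was led by Acta1 among 6 fibre genes, and cortex by Snap25 among 6 neuronal genes.

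Liver was the tissue in which most members were most abundant. Per length, as counts scaled to gene length and library size (FPKM), Por had a median of 127 over the 32 liver libraries, against 23.5 in cortex and 6.66 in muscle. Alas1 had a median of 114 FPKM in liver, 18.3 FPKM in muscle and 9.41 FPKM in cortex. The remaining liver medians were 59.4 FPKM for Nr1i2, 47.8 FPKM for Abcc2 and 37.7 FPKM for Abcc3. Nr1i3 had 23.5 FPKM there, Abcg2 5.85 FPKM and Ahr 4.19 FPKM, while the paired genes Abcb1a and Abcb1b stood lowest at 0.651 and 0.136 FPKM. These medians pool 4 liver groups, and the order of members differed within them. In male AL liver Abcc2 had 57.3, Nr1i2 44.1, Por 32.5 and Alas1 30.3 FPKM, and in female IF liver Alas1, at 150.2, was above Por, at 132.4 FPKM. Over the pooled libraries Abcb1a and Abcb1b were the members with their lowest tissue median in liver. Among female IF mice alone, Abcb1a had a median of 1.01 FPKM in liver and 0.997 FPKM in muscle, while in the other groups its liver median was the lowest. Cortex held the most Abcb1a, with a median of 3.90 FPKM, and muscle the most Abcb1b, with 0.664 FPKM.

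All 10 members passed the low-count filter in liver, and 7 passed it in muscle and in cortex. Nr1i2, Nr1i3 and Abcc2 were the members that did not. In muscle they were at 0 counts in 23, 18 and 25 of 32 libraries, and no muscle library held more than 9 counts of any of them. In cortex Nr1i2 was at 0 counts in 20 of 31 libraries, while Nr1i3 had a median of 0.140 CPM and Abcc2 of 0.129 CPM. Levels from here on are TMM-scaled CPM, and a difference between diets is the log2 fold change of IF over AL from edgeR with its standard error (SE).

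Por lay far above the AL range in every IF liver of the male set, while the diets overlapped in the female set. The 8 male AL livers ranged from 81.9 to 182 CPM around a median of 131, and the 8 male IF livers from 836 to 1172 around 993. The 8 female AL livers ranged from 382 to 633 CPM around 487, and the 8 female IF livers from 355 to 694 around 532. Both female groups therefore lay above all male AL livers and below all male IF livers. The ratio of IF to AL medians was 7.59 in the male set, with a log2 difference of 2.94 ± 0.16. The female log2 difference was 0.13 ± 0.14, with a 95% confidence interval from -0.16 to 0.42 and an adjusted p of 0.905. In the order of all 12 groups, the male IF livers came first without overlap, the overlapping female IF and AL livers followed, and the male AL livers overlapped the cortex groups.

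Alas1 spread more widely between mice. In male livers it ran from 60.6 through a median of 187 to 387 CPM under AL, and from 563 through 762 to 1557 CPM under IF. In female livers it ran from 212 through 702 to 1310.2 CPM under AL, and from 664 through 927 to 1915 CPM under IF. The diets did not overlap in the male set and overlapped in the female set, where 7 of 8 IF livers stood above the AL median. Male livers had a log2 difference of 2.12 ± 0.42. In females it was 0.55 ± 0.31, the interval ran from -0.10 to 1.20, and the adjusted p was 0.850. The male AL livers were low among the liver groups, since the female AL median was 3.75 times theirs.

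**Figure D1:**
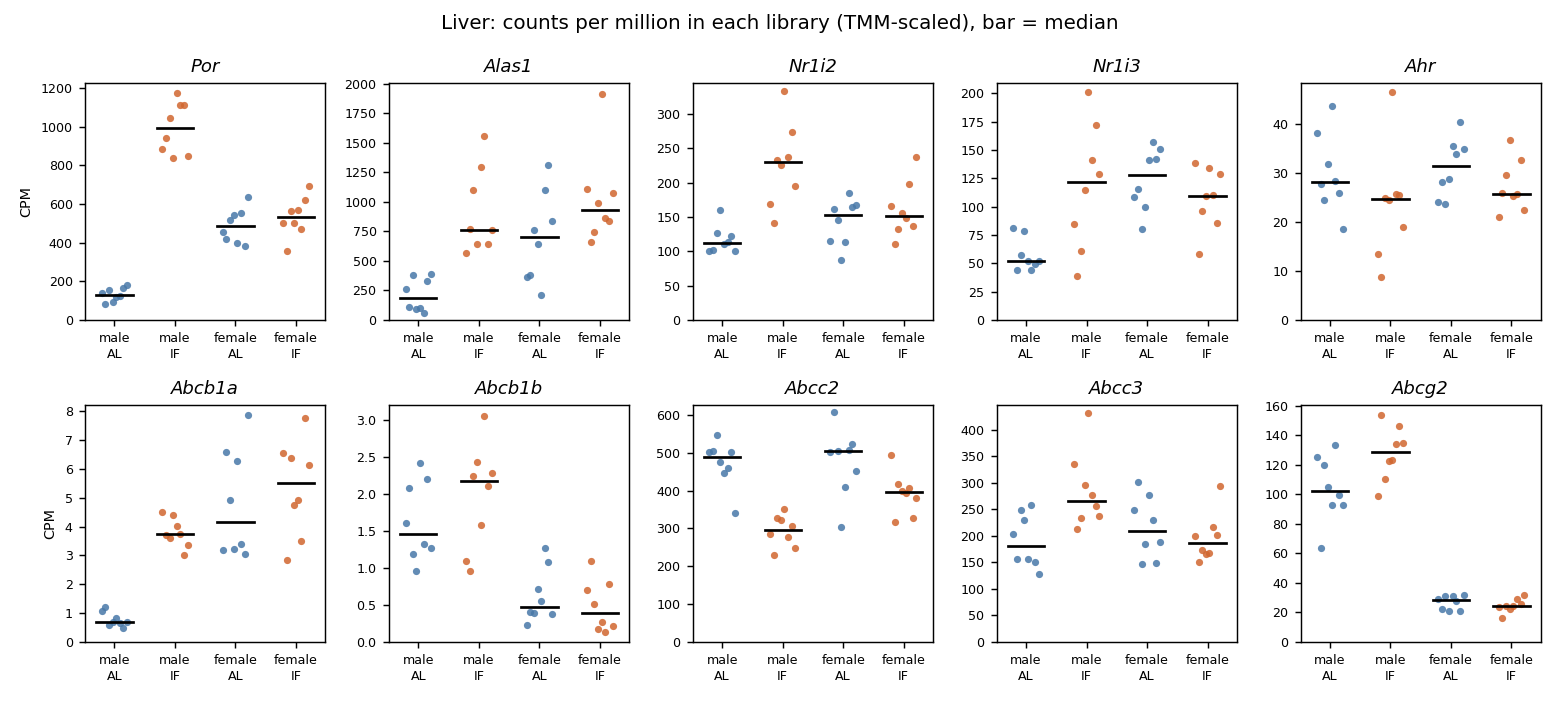
TMM-scaled CPM of the 10 members in each liver library (points) with the group median (bar), for the male and female sets under AL and IF, 8 mice each. Por, Alas1 and Abcb1a are the members whose male AL and male IF points do not overlap.

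Genes that surround Por and Alas1 moved in both directions in the male livers. Of 11 other genes of haem synthesis and breakdown tested there, 5 rose and 3 fell under IF, with a median log2 difference of -0.03, against 0.06 over all genes tested. Of all genes tested in male livers 44.6% were called, a share to be held beside this list and the lists that follow. The lists were chosen with earlier results of these data known, and the genes named next were picked after their values were seen. Their adjusted p, taken over all genes tested, are therefore given as a description only. Hmox2 and Hmox1, which encode haem oxygenases, rose by 1.44 ± 0.18 and 1.40 ± 0.19 log2 units (adjusted p = 7.3e-07 and 3.4e-06, edgeR). Fech, the ferrochelatase of the last step, rose by 0.72 ± 0.09 (adjusted p = 1.0e-06), while Ppox, the enzyme that acts before it, fell by 0.79 on the log2 scale (SE 0.11, adjusted p = 1.8e-06). Of 9 electron transfer partners, 1 rose and 4 fell. Cyb5a, cytochrome b5, fell by 0.90 on the log2 scale (SE 0.14, adjusted p = 8.5e-06), and male AL livers held 1018 to 1589 CPM of it against 389.7 to 761 CPM in male IF livers.

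Among the receptors, Nr1i2 and Nr1i3 had medians 2.04 and 2.35 times higher in male IF than male AL livers, and Ahr had a ratio of 0.879. Nr1i2 ranged from 100.3 to 160.4 CPM around 113 in male AL livers and from 141 to 333 around 229.6 in male IF livers. In the female set it ranged from 87.0 to 185 CPM around 154 under AL and from 111 to 238 around 152 under IF. Of the male IF livers 7 of 8 were above all male AL livers, and the female diets overlapped. The male log2 difference was 0.99 ± 0.15, and the female one was 0.17 ± 0.16 (interval from -0.17 to 0.51, adjusted p = 0.894).

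Nr1i3 ran from 43.6 through 51.9 to 81.3 CPM in male AL livers and from 38.3 through 122 to 201 CPM in male IF livers. Female AL livers ran from 80.0 through 128 to 157 CPM and female IF livers from 58.0 through 109.6 to 138 CPM. Of the male IF livers 6 stood above the male AL range and 1, that of mouse 10, below it, and the spread under male IF was the widest of the 4 groups. On the log2 scale the diets differed by 1.08 ± 0.28 in males and -0.21 ± 0.17 in females (interval from -0.55 to 0.14, adjusted p = 0.882).

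Ahr overlapped across all 4 liver groups. Its medians were 28.02 CPM in male AL, 24.6 in male IF, 31.3 in female AL and 25.7 CPM in female IF livers. The male IF livers had the widest range, from 8.81 to 46.5 CPM. The log2 differences were -0.30 ± 0.26 in the male set and -0.19 ± 0.13 in the female set, where the interval ran from -0.46 to 0.08 and the adjusted p was 0.872.

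The receptors' partners and targets were mixed in male livers. Of 18 partners and co-regulators tested 7 rose and 3 fell, with a median log2 difference of 0.16. Rxra, the retinoid X receptor with which both nuclear receptors bind DNA, rose by 0.98 ± 0.10 log2 units (adjusted p = 2.6e-08). It ranged from 156 to 210.2 CPM under AL and from 277 to 395 CPM under IF. Of 15 target genes 7 rose and 5 fell, with a median of 0.46. Cyp3a11, a pregnane X receptor target, rose by 0.69 ± 0.18 (adjusted p = 0.0034), whereas Cyp2c55, listed as a target of the same receptors, fell by 1.68 on the log2 scale (SE 0.18, adjusted p = 5.9e-08). Cyp2b10, the best known target of Nr1i3, had overlapping values with medians of 1.95 CPM under AL and 3.17 CPM under IF (log2 difference 0.24 ± 0.36, adjusted p = 0.613). Cyp1a2, an Ahr target, fell by 0.42 on the log2 scale (SE 0.14, adjusted p = 0.0145). These genes too were named after their values were seen, so their adjusted p are a description only.

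The pumps split by gene. Abcb1a, a P-glycoprotein gene, was scarce in male AL livers, where it ranged from 0.481 to 1.20 CPM around 0.686. The male IF livers ranged from 3.005 to 4.50 CPM around 3.73. In the female livers it ranged from 3.04 to 7.86 CPM around 4.16 under AL and from 2.83 to 7.77 around 5.53 under IF. Every male AL liver was thus below every other liver library, and the female groups overlapped each other and the male IF livers. The log2 difference was 2.30 ± 0.23 in males and 0.15 ± 0.24 in females, with an interval from -0.34 to 0.64 and an adjusted p of 0.946 in the latter.

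Abcb1b, its neighbour on chromosome 5 and the other rodent P-glycoprotein gene, had a different pattern. Its medians were 1.47 CPM in male AL, 2.18 in male IF, 0.479 in female AL and 0.393 CPM in female IF livers. The diets overlapped in both sets, and all 16 female livers were below the male median of their own diet. The log2 differences of 0.31 ± 0.29 in males and -0.37 ± 0.49 in females rest on few counts, at most 125 in any liver library, and the female interval ran from -1.39 to 0.65 (adjusted p = 0.933).

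Abcc2, the pump of the bile canaliculus, had the lowest log2 difference of the members in male livers. It ranged from 342 to 546 CPM around 489 in male AL livers and from 229.7 to 351 around 295 in male IF livers. The female livers ranged from 303 to 608 CPM around 504 under AL and from 316 to 493.4 around 396 under IF. Of the male IF livers 7 of 8 were below the male AL range, and 8 of 8 female IF livers were below the female AL median but within the AL range. This gave a log2 difference of -0.65 ± 0.11 in males. In females it was -0.28 ± 0.13 with an interval from -0.56 to -0.01, an unadjusted p of 0.0462 and an adjusted p of 0.850, so it did not pass the test.

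Abcc3, which exports conjugates into blood, had medians of 179.7 CPM in male AL, 266 in male IF, 209 in female AL and 187 CPM in female IF livers. Of the male IF livers 4 of 8 exceeded the male AL maximum of 258 CPM. Its log2 differences were 0.61 ± 0.16 in the male set and -0.14 ± 0.16 in the female set (interval from -0.48 to 0.20, adjusted p = 0.920).

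Abcg2, the breast cancer resistance protein, separated the sets rather than the diets. Male livers ranged from 63.6 to 134 CPM around 102 under AL and from 98.9 to 154 around 129 under IF. Female livers ranged from 20.8 to 31.7 CPM around 28.4 under AL and from 15.9 to 31.7 around 24.2 under IF. No female liver reached any male liver under either diet. The diet differences were 0.33 ± 0.13 in males and -0.12 ± 0.13 in females on the log2 scale, the latter with an interval from -0.40 to 0.15 and an adjusted p of 0.903. Without AL mouse 2 and IF mouse 10 the male difference was 0.22.

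Other transporters of drugs and bile acids gave 9 genes that rose and 2 that fell among 16 in male livers, with a median log2 difference of 0.40. Abcc1, picked after its value was seen, rose by 1.10 ± 0.20 log2 units (adjusted p = 1.2e-04, edgeR). Slc47a1, an exporter of organic cations picked in the same way, fell by 0.87 on the log2 scale (SE 0.18, adjusted p = 4.6e-04, edgeR). Both adjusted p are a description only. Of the 83 genes of all 6 lists tested in female livers edgeR called 0, with 8 at an unadjusted p under 0.05 and 0 in DESeq2.

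Of all 16204 genes tested in male livers 44.6% were called at an adjusted p under 0.05 in edgeR's quasi-likelihood test with Benjamini-Hochberg adjustment. Because the members were selected on this contrast, no count of members called is given for it. The AL and IF values of Por, Alas1 and Abcb1a did not overlap there. Neither did those of 14.9% of the genes tested, and nothing is read from that comparison, since this contrast chose the members. In female livers edgeR called 0 of 10 members at an adjusted p under 0.05 and 0 of 15938 genes, a background of 0%. At an unadjusted p under 0.05 the counts there were 1 member and 919 genes, and DESeq2 called 0 members and 8 genes. The diets separated 0 members and 0.0251% of the genes in female livers. Whether the diet response of the members differed between the male and female livers was not tested, because the male response had been used to choose them.

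Cell markers and RNA composition also differed between the male liver groups. Summed CPM of 6 erythrocyte genes was 406 to 916 under AL and 674 to 6348 under IF, with 4 of the 6 called higher and Hbb-bs the most abundant under IF. IF mice 9 and 10 held the highest sums, 6348 and 4702 CPM, and their livers had the lowest mean correlations with the other livers. The sum of 8 endothelial genes was 68.1 to 93.0 CPM under AL and 98.5 to 176 CPM under IF, with 5 of the 8 called higher and Kdr the most abundant. Of 5 bile duct genes, led by Spp1, 3 were called higher and 1 lower, with a median log2 difference of 1.14 and sums of 60.7 to 135 CPM under AL and 76.3 to 155 CPM under IF. Of 5 pericyte and smooth muscle genes, led by Abcc9, 2 were called higher, with sums of 38.9 to 54.9 CPM under AL and 42.9 to 90.6 CPM under IF. Hepatocyte sums overlapped, from 45403 to 67684 CPM around 59426 under AL and from 43608 to 66377 CPM around 51400 under IF. Of the 6 hepatocyte genes 1 was called lower, and 4 were above 0 and 2 below it. The mitochondrial share of counts was 20.1% ± 3.5 under AL and 11.2% ± 1.8 under IF (SD, n = 8 each). IF mouse 10 also held the lowest male IF level of 6 members, Nr1i2, Nr1i3, Ahr, Abcb1b, Abcc2 and Abcc3. Without IF mice 9 and 10, a choice made after seeing the data, 7011 genes were called in male livers. The log2 differences without them were 2.99 for Por, 2.25 for Alas1, 1.14 for Nr1i2, 1.30 for Nr1i3 and -0.06 for Ahr. Among the pumps they were 2.27 for Abcb1a, 0.53 for Abcb1b, -0.59 for Abcc2, 0.63 for Abcc3 and 0.35 for Abcg2. The part of these shifts in the members' values was not tested, and in bulk tissue fewer cells of a type cannot be told apart from less RNA per cell.

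The sets also differed under AL. Between female and male AL livers 20.0% of 17658 genes were called. This contrast shares the male AL libraries with the one that chose the members, so its member values are a description and neither a p nor a count of members called is given. The female to male ratio of AL medians was 3.72 for Por, 3.75 for Alas1, 2.47 for Nr1i3 and 6.07 for Abcb1a. It was 0.326 for Abcb1b and 0.278 for Abcg2. Por, Abcb1a and Abcg2 did not overlap between the AL sets, and neither did 4.99% of the genes. Por and Abcg2 did not overlap between the IF sets, where their female to male ratios were 0.536 and 0.188 and 10.2% of the genes did not overlap. Of 5 macrophage genes, led by Clec4f, 3 were called higher in female AL livers, with a median log2 difference of 0.96 and sums of 121 to 201 CPM in male AL and 172 to 453 CPM in female AL livers. Of 8 endothelial genes, led by Kdr, 2 were called lower, with sums of 68.1 to 93.0 CPM in male AL and 62.8 to 71.9 CPM in female AL livers. The part of these cell types in the members' set differences was not tested.

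The same AL livers differed in their clock genes. Of 15 clock and PAR bZIP genes 10 were higher and 5 lower in female than male AL livers, where 20.0% of all genes were called. Arntl, which encodes a core activator of the clock, ranged from 14.99 to 25.98 CPM in male AL livers and from 0.582 to 1.81 CPM in female AL livers. Per1 ranged from 3.05 to 8.36 CPM in male AL and from 18.0 to 106 CPM in female AL livers. Under IF the male livers held 3.08 to 6.96 CPM of Arntl and 50.7 to 185 CPM of Per1. With the diet 10 of the 15 clock genes rose and 4 fell there, where 44.6% of all genes were called. These genes were picked after their values were seen. The part of clock phase or hour of sampling in the members' liver levels was not tested.

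In muscle, Por was the member that changed in the male set. It ranged from 20.1 to 28.6 CPM around 23.7 in male AL muscle and from 20.8 to 73.8 around 31.1 in male IF muscle. In the female set it ranged from 24.99 to 35.2 CPM around 29.3 under AL and from 23.9 to 32.9 around 25.9 under IF. Of the male IF muscles 6 of 8 exceeded the AL maximum, and mice 12, 10 and 9 led with 73.8, 57.9 and 48.0 CPM. The male log2 difference was 0.71 ± 0.24 (adjusted p = 0.0468, edgeR), and the female one was -0.14 ± 0.07 (adjusted p = 0.512). The difference between the female and male responses was itself called, at -0.83 ± 0.25 on the log2 scale (adjusted p = 0.0216).

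The call of Por in male muscle was fragile. On leaving out 1 mouse at a time the adjusted p ran from 0.0221 to 0.0843 and passed 0.05 in 4 of 16 refits, those without IF mouse 11, 13, 14 or 15. The log2 difference stayed between 0.51 and 0.80, and its lowest value came without IF mouse 12 (0.51, adjusted p = 0.0790). Leaving out any of AL mice 1 to 8 or IF mouse 9, 10 or 16 also lost the call, with log2 differences from 0.61 to 0.75. The difference between the sets held in 32 of 32 such refits, from -0.92 to -0.64 on the log2 scale, with adjusted p from 0.00625 to 0.0367. With no low-count filter the adjusted p was 0.0858 for Por in male muscle and 0.0548 for the difference between the sets. In edgeR the male call was also lost under a replicate block, at 0.58 on the log2 scale (adjusted p = 0.0563). Without both AL mouse 2 and IF mouse 10 it was lost at 0.64 (adjusted p = 0.0925).

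Fat markers moved with Por in the same muscles. The summed CPM of 5 adipocyte genes was 164 to 721 around 321 in male AL muscle. In male IF muscle it was 403 to 3288 around 1414. Of the 5 genes 4 were called higher and 1 was below 0, with Fabp4 the most abundant. The 4 highest sums were 3288 CPM in mouse 12, 2321 in mouse 10, 1836 in mouse 9 and 1686 CPM in mouse 16. The 4 highest Por levels were those of the same mice in the same order. Of 6 muscle fibre genes, led by Acta1, 3 were called lower in male IF muscle. In female muscle the adipocyte sums overlapped, from 211 to 998 CPM under AL and from 118 to 802 CPM under IF. For the difference between responses 3 of the 5 genes were called lower in females, with 4 below 0 and 1 above 0. The part of fat in the muscle Por level was not tested.

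Between the muscles of the sets, Abcb1b did not overlap under AL and overlapped under IF. It ranged from 3.79 to 5.24 CPM around 4.20 in male AL muscle and from 4.34 to 5.84 around 5.38 in male IF muscle. In the female set it ranged from 6.14 to 9.33 CPM around 7.92 under AL and from 3.91 to 6.93 around 4.93 under IF. The female AL muscles had the highest Abcb1b median of all 12 groups and overlapped only the female IF muscles, and 7 of 8 female IF muscles were below the female AL range. The log2 difference was 0.21 ± 0.10 in males (adjusted p = 0.148) and -0.63 ± 0.12 in females. The female value had an adjusted p of 0.185 in edgeR and 0.00435 in DESeq2. The responses differed by -0.83 ± 0.16 (adjusted p = 4.6e-04), and this was called in 32 of 32 refits that left out 1 mouse each.

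Abcb1a ranged from 3.53 to 7.07 CPM around 5.24 in male AL muscle and from 3.91 to 6.99 around 5.04 in male IF muscle. Female muscle ranged from 6.43 to 10.6 CPM around 7.85 under AL and from 3.20 to 7.40 around 5.46 under IF. The male diets overlapped fully, and 7 of 8 female IF muscles were below the female AL range. The log2 difference was -0.04 ± 0.14 in males (adjusted p = 0.856) and -0.64 ± 0.14 in females, where the adjusted p was 0.200 in edgeR and 0.0164 in DESeq2. The difference between the responses was -0.58 ± 0.20, with an adjusted p of 0.0524 in edgeR and 0.0423 in DESeq2. It was also called with at least 10 counts required in every library (adjusted p = 0.0403). In edgeR it was called in 9 of 32 refits that left out 1 mouse each, at -0.65 to -0.60 with adjusted p from 0.0243 to 0.0481. These were the refits without female AL mouse 25 or 27, female IF mouse 33, 39 or 40, male AL mouse 4 or 7, or male IF mouse 10 or 13. Both genes share sequence. Of the windows of 50, 100 and 150 bases in the longest Abcb1a transcript, 15.2%, 7.24% and 4.27% also occur in Abcb1b transcripts. The read length is not stated here, and the part of shared reads in these counts was not tested.

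Endothelial markers had a lower median sum in the same female IF muscles, with overlapping ranges. The sum of 8 endothelial genes, led by Cdh5, was 169 to 261 CPM around 198 in female AL muscle and 118 to 189.8 CPM around 169 in female IF muscle. All 8 of these genes had a negative log2 difference, with a median of -0.37, and edgeR called 0 of the 8, with 7 at an unadjusted p under 0.05 and 1, Tek, in DESeq2. In male muscle the sums were 196 to 250.1 CPM under AL and 198 to 269 CPM under IF. For the difference between the responses, the contrast in which Abcb1b was called, 3 of the 8 were called lower in females, Tek, Pecam1 and Cldn5, and 7 of the 8 were negative, with a median of -0.32. Of 6 fibre genes 3 were called higher in females in that contrast, and all 6 were above 0, with a median of 0.37. The part of vessel or fibre content in the muscle pump levels was not tested.

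**Figure D2:**
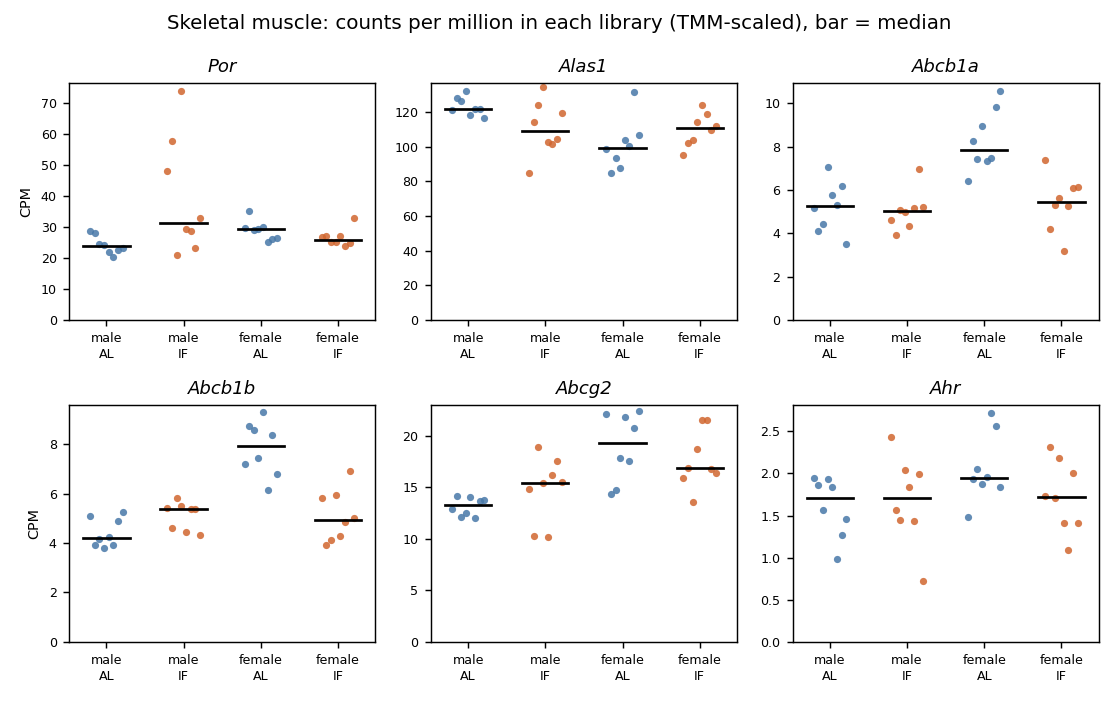
TMM-scaled CPM in each muscle library (points) with the group median (bar), for the male and female sets under AL and IF, 8 mice each. Por reaches 73.8 CPM in 1 male IF muscle, and Abcb1b is highest in the female AL muscles.

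The other tested members overlapped between the diets in muscle. Alas1 medians were 122 CPM in male AL, 109.4 in male IF, 99.5 in female AL and 111 CPM in female IF muscle, with log2 differences of -0.16 ± 0.07 in males (adjusted p = 0.130) and 0.10 ± 0.08 in females (adjusted p = 0.663). Without IF mouse 12 the male value was -0.21 and was called (adjusted p = 0.0347). The responses of the sets differed by 0.28 ± 0.11 (adjusted p = 0.0877), a value of 0.34 that was called without female AL mouse 31 (adjusted p = 0.0208). Abcg2 medians were 13.3 and 15.4 CPM in male AL and IF muscle and 19.3 and 16.8 CPM in female AL and IF muscle, and neither diet difference passed the test (adjusted p = 0.265 and 0.722). Ahr and Abcc3 had medians of at most 1.95 and 0.515 CPM in any muscle group, and their diet differences did not pass the test in either set.

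In male muscle 1 of 7 members was called, where 23.0% of 15025 genes were called, so the members' share was not above that of all genes. In female muscle edgeR called 0 of 7 members and 1 gene of 15308, or 0.00653%. At an unadjusted p under 0.05 the female counts were 2 members and 1644 genes, and DESeq2 called 2 members, Abcb1a and Abcb1b, and 83 genes, or 0.603%. The diet response differed between the sets for 2 of 7 members, where 14.2% of 16346 genes were called. In the AL muscles of the sets 4 of 7 members were called, where 38.4% of the genes were, and with so few members these shares are not read as particular to them. Abcb1b, Abcb1a and Abcg2 were higher in female than male AL muscle, by 0.83 ± 0.11, 0.68 ± 0.14 and 0.53 ± 0.11 log2 units (adjusted p = 5.5e-07, 3.3e-04 and 3.9e-04). Alas1 was lower there by a log2 difference of -0.29 ± 0.08 (adjusted p = 0.00379). Abcb1b and Abcg2 did not overlap between the AL muscles of the sets, and neither did 7.79% of the genes. Between the IF muscles of the sets 0 of 7 members and 5.21% of the genes did not overlap. The diets left 0 of 7 members without overlap in male and in female muscle, where 4.07% and 0.0849% of the genes did not overlap.

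Cell markers differed between the same AL muscles. Of 5 epithelial genes, a list made for bile duct cells, 4 were called higher in female AL muscle, with a median log2 difference of 3.93, and their summed CPM was 2.23 to 6.51 in male AL and 3.28 to 55.4 in female AL muscle. Sox9 was the most abundant of them in male AL and Spp1 in female AL muscle, while Krt7 and Epcam had medians under 0.1 CPM in male AL muscle. Of 6 fibre genes 4 were called lower in females, and their sums overlapped, from 138681 to 152383 CPM in male AL and from 113822 to 155781 CPM in female AL muscle. Of 8 endothelial genes 1 was called higher and 2 lower. Of 5 erythrocyte genes tested, led by Hbb-bs, 3 were called lower and all 5 were below 0, with a median log2 difference of -0.87, and the sum of the list was 196 to 903 CPM in male AL and 51.8 to 397 CPM in female AL muscle. The part of these cell types in the set differences of the members was not tested.

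Pathway genes in muscle followed no common direction. In male muscle, where 23.0% of all genes were called, 1 haem gene rose and 1 fell among 11, and 2 of 9 electron transfer partners rose, Pgrmc1 by 0.73 ± 0.12 and Cyb5a by 0.62 ± 0.17 log2 units (adjusted p = 9.7e-05 and 0.0132). Hmox1 was the haem gene that rose, by 0.41 ± 0.11 (adjusted p = 0.00813). Of 15 receptor partners 4 rose and 6 fell, of 3 targets 2 rose and of 7 transporters 2 rose. Of 15 clock genes 7 rose and 5 fell. Between the AL muscles of the sets, where 38.4% of all genes were called, 8 clock genes were higher and 4 lower in females. For the difference between responses, where 14.2% of all genes were called, 4 were called higher and 3 lower. The part of clock phase or hour of sampling in the members' muscle values was not tested. The genes named here were picked after their values were seen, so their adjusted p are a description only. Of 59 genes of the lists tested in female muscle edgeR called 0, with 8 at an unadjusted p under 0.05 and 0 in DESeq2.

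In cortex the AL and IF values overlapped in both sets for all 7 tested members. Por ranged from 86.3 to 108.5 CPM around 92.0 in male AL cortex and from 87.8 to 113 around 97.3 in male IF cortex. In the female set it ranged from 82.8 to 104 CPM around 90.0 under AL and from 93.5 to 113 around 96.4 under IF. All 4 groups overlapped, although each of the 8 female IF values was above the female AL median. The log2 differences were 0.07 ± 0.06 in males (adjusted p = 0.530) and 0.13 ± 0.06 in females (unadjusted p = 0.0412, adjusted p = 0.429).

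Abcb1a, which marks the vessels of the brain, ranged from 17.2 to 23.1 CPM around 21.7 in male AL cortex and from 19.1 to 21.9 around 20.8 in male IF cortex. Female cortex ranged from 20.04 to 25.95 CPM around 21.4 under AL and from 20.01 to 25.2 around 22.3 under IF. These groups overlapped each other and lay above every muscle and liver library. The log2 difference was 0.01 ± 0.07 in males (interval from -0.14 to 0.15, adjusted p = 0.970) and 0.01 ± 0.07 in females (interval from -0.13 to 0.15, adjusted p = 0.958). The sum of 5 brain endothelial genes was 237 to 281 CPM in male AL and 258 to 334 CPM in male IF cortex, where Slc2a1 and Mfsd2a were called higher and Cldn5 lower, with Cldn5 medians of 96.3 and 75.01 CPM. In female cortex the sums were 234 to 288 CPM under AL and 249 to 298 CPM under IF. Cldn5 was the most abundant of them in male AL cortex and Slc2a1 in the other groups. Of the 8 endothelial genes summed in liver and muscle, 7 were below 0 and 1 above 0 in male cortex, with a median log2 difference of -0.17. Of these 8, edgeR called 1 higher and 1 lower, and DESeq2 called 5. Their sums were 213 to 254 CPM in male AL and 180 to 235 CPM in male IF cortex. The part of either list in the members' cortex levels was not tested.

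Abcg2, the other pump of brain vessels, had medians of 14.5 and 14.6 CPM in male AL and IF cortex and 15.2 and 16.4 CPM in female AL and IF cortex. Alas1 medians lay between 52.7 and 59.9 CPM, Ahr medians between 5.05 and 6.19 CPM and Abcc3 medians between 2.61 and 3.24 CPM over the 4 groups. Abcb1b was the member called between the sets, since it ranged from 2.56 to 3.33 CPM in male AL cortex and from 3.12 to 4.26 CPM in female AL cortex. That difference was 0.42 ± 0.10 on the log2 scale (adjusted p = 0.00744), and 5 of 8 female AL values lay above the male AL maximum. Of 4 oligodendrocyte genes, led by Mbp, 3 were called higher in the same female AL cortices, with a median log2 difference of 0.52 and sums of 3667 to 5794 CPM in male AL and 4811 to 8266 CPM in female AL cortex. Of 5 brain endothelial genes 1 was called lower there. The part of these cell types in the Abcb1b difference was not tested.

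**Figure D3:**
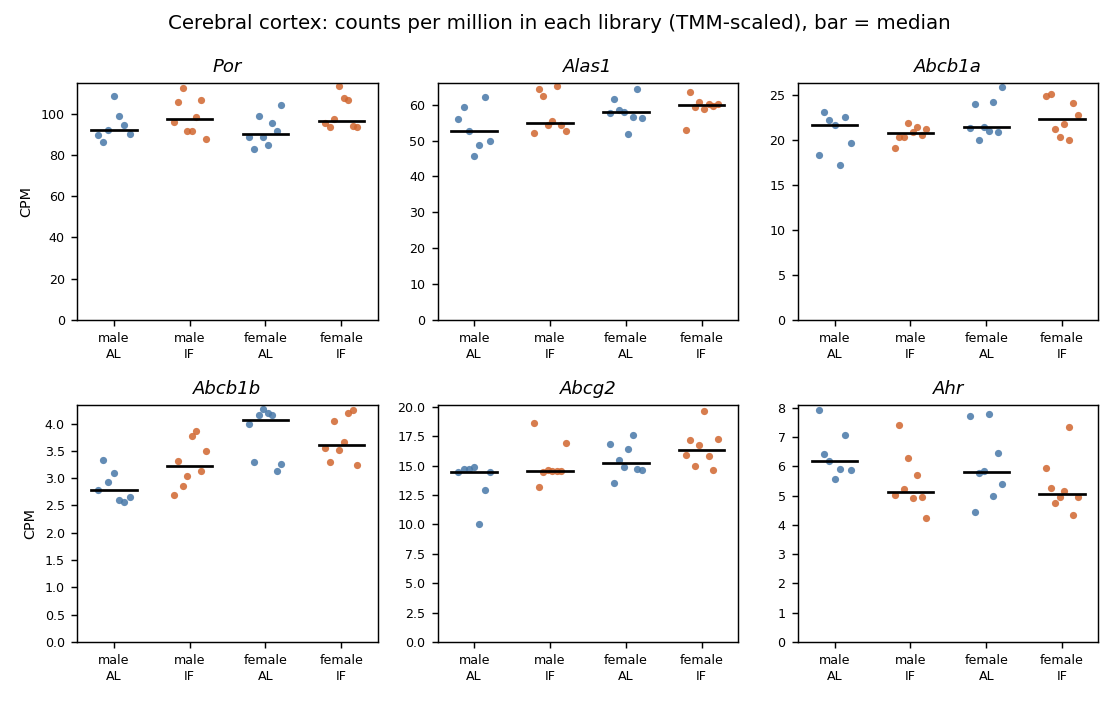
TMM-scaled CPM in each cortex library (points) with the group median (bar), for the male and female sets under AL and IF, with 7 male AL mice and 8 mice in each other group. Abcb1a lies between 17.2 and 25.95 CPM in all libraries drawn.

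For the diet in cortex edgeR called 0 of 7 members in the male set, where 7.21% of 18462 genes were called, and 0 of 7 in the female set, where 0.0109% of 18403 genes were. At an unadjusted p under 0.05 those counts were 0 members in the male set and 1 in the female set, and DESeq2 called 0 in both. Over all genes the counts at an unadjusted p under 0.05 were 4400 and 2069, and DESeq2 called 2140 and 60. The response differed between the sets for 0 of 7 members in edgeR, 0 at an unadjusted p under 0.05 and 0 in DESeq2, where edgeR called 2.03% of 19547 genes. Between the AL sets 1 of 7 members was called, where 12.6% of the genes were. The diets separated 0 of 7 members in male and in female cortex, where 1.02% and 0.0435% of the genes did not overlap. The sets separated 0 of 7 members in AL and in IF cortex, where 2.08% and 0.875% of the genes did not overlap.

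The pathway lists in male cortex, where 7.21% of all genes were called, had 4 clock genes that rose and 3 that fell among 15, 3 of 9 transporters that rose, and 1 haem gene and 1 electron transfer partner that rose. Abcc4, Abcc6 and Abcc1 were those transporters, at 0.44 ± 0.08, 0.65 ± 0.14 and 0.35 ± 0.11 log2 units (adjusted p = 0.00490, 0.0130 and 0.0481). Of 16 receptor partners 2 fell. The 1332 genes called in male cortex were 498 without AL mouse 2 and IF mouse 10 and 294 with the library of AL mouse 1 kept, and the list genes were not followed through these fits. Of 4 oligodendrocyte genes, led by Mbp, 3 were called higher in male IF cortex, with a median of 0.45 and sums of 3667 to 5794 CPM under AL and 5033 to 8279 CPM under IF. Their part in the values of the list genes was not tested. Of 65 genes of the lists tested in female cortex edgeR called 0, with 8 at an unadjusted p under 0.05 and 1, Per2, in DESeq2.

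**Figure D4:**
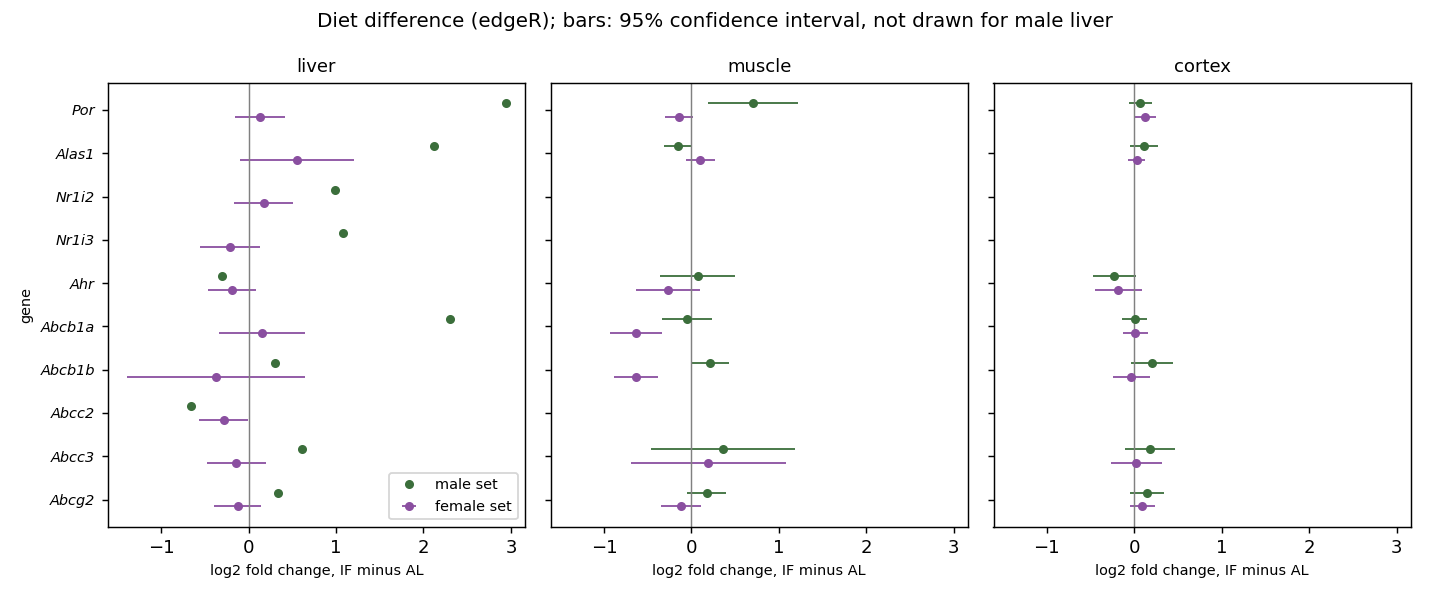
Log2 fold change of IF over AL for each tested member in liver, muscle and cortex, male and female sets (points), with the 95% confidence interval of edgeR (bars, not drawn for male liver). Por, Abcb1a and Alas1 lie above 2 in male liver, and the female liver points lie between -0.37 and 0.55.

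Across the 12 groups each member had close companions among the 15853 genes with a mean of at least 1 CPM, measured by Pearson's r of mean log2 CPM, a description in which the tissues dominate. The nearest to Por was Grn (r = 0.993), and the nearest to Alas1 was Dio3os (r = 0.982). Nr1i2 was closest to Gm16573 and Serpina1d (r = 0.9995 for both), Nr1i3 to Ccs (r = 0.999) and Ahr to Chuk (r = 0.998). Abcc2 was closest to Rgn (r = 0.9996) and Abcc3 to Mttp (r = 0.999). Abcb1a and Abcb1b had their nearest companions in Gm15860 (r = 0.964) and Gm39469 (r = 0.978). For Abcg2 these were Mup-ps19 and Mup7 (r = 0.988 and 0.981), members of a family of major urinary protein genes.

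On the GRCm39 assembly of the deposited table, the P-glycoprotein genes lie in tandem on the plus strand of chromosome 5, Abcb1a from 8710077 to 8798575 and Abcb1b from 8848147 to 8916315. Por lies on the same chromosome from 135698887 to 135764180. The other members lie on chromosomes of their own, Nr1i3 on 1, Abcg2 on 6, Alas1 on 9, Abcc3 on 11, Ahr on 12, Nr1i2 on 16 and Abcc2 on 19. Nr1i3 overlaps the coding gene Tomm40l on the opposite strand. Whether reads were counted by strand is not stated, so the Nr1i3 counts may hold reads of that gene. By gene bounds Abcb1a overlaps Gm42684 and Abcb1b overlaps 7330423F06Rik on the same strand. Por, Alas1, Ahr, Abcb1a and Abcb1b also overlap genes on the opposite strand. None of these further genes is labelled protein-coding, and their part in the counts was not tested.

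The start regions shown are those of Por and Alas1, members whose AL and IF values did not overlap in male livers, and of Nr1i3 as a receptor. That choice rests on the contrast that selected the members and supports nothing. RefSeq windows on GRCm38.p6, from 250 bases before to 50 bases after a transcript start, matched 8 of the 10 members with 11 windows, and Ahr and Abcc3 were the members without one. Capitals mark matches on either strand to the core of the aryl hydrocarbon receptor site, GCGTG, or to the E-box bound by clock factors, CACGTG. The D-box of PAR bZIP factors, TTATGTAA or TTACGTAA, was also searched on both strands. The windows shown are Por at chr5:135688895-135689194 (plus strand), Alas1 at chr9:106247681-106247980 (minus strand) and Nr1i3 at chr1:171213720-171214019 (plus strand). Found by their letters on GRCm39, the transcript starts of these windows lie at most 7 bases from an annotated one of the same gene, although the Por start lies 19112 bases inside the Por gene of the count table. The start of the Abcb1a window lies 92986 bases before the Abcb1a gene of that table, so it is not shown.
Por: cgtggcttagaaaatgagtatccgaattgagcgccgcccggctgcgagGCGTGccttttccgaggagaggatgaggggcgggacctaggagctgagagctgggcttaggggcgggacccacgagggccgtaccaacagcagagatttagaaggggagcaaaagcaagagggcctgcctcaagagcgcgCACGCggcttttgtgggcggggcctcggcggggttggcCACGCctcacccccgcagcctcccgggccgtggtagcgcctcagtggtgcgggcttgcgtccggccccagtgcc
Alas1: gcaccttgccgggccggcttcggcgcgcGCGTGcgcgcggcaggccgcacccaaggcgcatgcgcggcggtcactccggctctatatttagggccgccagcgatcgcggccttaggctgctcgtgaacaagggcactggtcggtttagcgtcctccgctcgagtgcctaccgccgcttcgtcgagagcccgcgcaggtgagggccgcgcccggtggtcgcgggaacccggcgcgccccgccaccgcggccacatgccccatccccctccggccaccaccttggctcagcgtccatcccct
Nr1i3: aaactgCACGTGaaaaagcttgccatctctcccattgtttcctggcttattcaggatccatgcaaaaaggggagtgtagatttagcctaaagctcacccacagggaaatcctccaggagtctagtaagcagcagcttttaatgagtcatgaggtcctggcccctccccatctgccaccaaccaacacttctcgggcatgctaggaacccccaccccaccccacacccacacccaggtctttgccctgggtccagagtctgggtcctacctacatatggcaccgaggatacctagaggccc

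The Por window held 3 matches to GCGTG and the Alas1 window 1, and the Nr1i3 window held 1 match to CACGTG. Over all 32851 windows 32.4% held GCGTG, 7.15% CACGTG and 1.06% a D-box, against 4, 1 and 0 of the 11 member windows. The 4 include 2 overlapping Alas1 windows that hold the same match, and 3 of the 11 windows belong to Abcg2. The G and C content was 67.3% for Por, 73.3% for Alas1 and 54.0% for Nr1i3, with a median of 52.7% over all windows. A match describes letters in the window and says nothing of binding.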

How the data were processed

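The deposited values are raw counts, which the authors made by aligning reads to GRCm39 with HISAT2 and counting them per gene with featureCounts. Members and gene lists were chosen with earlier results of these data known. Members were matched by gene name, and libraries were grouped by tissue, labelled sex and diet. For each tissue and set, all genes passing filterByExpr (minimum count 10, minimum total 15) entered a robust quasi-likelihood fit of edgeR 4.0.16 (R 4.3.3) on TMM-scaled libraries. A gene was called at an adjusted p (Benjamini-Hochberg) under 0.05. A fit over the 4 groups of a tissue gave the set differences and the difference between responses. DESeq2 1.42.0 and other settings served as alternatives. Pathway genes were to be named as the 3 largest called changes per list and direction in female liver. This gave no gene, so those named were picked afterwards. FPKM used the gene lengths of the deposited table. The cortex library of AL mouse 1 was left out. Precision varied with the count, since tested members ran from 3 counts of Abcc3 in a male muscle library to 63480 counts of Alas1 in a liver library.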

Additional observations from a re-analysis of the deposited data

Results flagged for a closer look

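A library was picked out where its gap to the nearest library of its group was large for the range of that group by Dixon's test, which chance alone does in about 1 in 20 groups. This held in 10 of 89 groups of member levels. In liver the high libraries were Alas1 in female IF mouse 37 with 1915 CPM, Nr1i2 in male AL mouse 4 with 160.4 CPM, Ahr in male IF mouse 13 with 46.5 CPM and Abcc3 in female IF mouse 40 with 294 CPM. In muscle they were Por in female IF mouse 40 with 32.9 CPM, Alas1 in female AL mouse 31 with 132 CPM and Abcb1a in male IF mouse 15 with 6.99 CPM. In cortex the libraries picked out were low, Alas1 in female IF mouse 33 with 52.9 CPM, Abcc3 in female IF mouse 38 with 1.75 CPM and Abcg2 in male AL mouse 6 with 10.01 CPM.

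The responses to IF in muscle differed between the female and male sets by a test of the difference itself, for Por by -0.83 and for Abcb1b by -0.83 on the log2 scale. The part of adipose, vessel and fibre content in these differences was not tested.

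The cortex library of AL mouse 1 is labelled male and was kept only in alternative fits. It showed a signal where male libraries show almost none, 213 CPM of Xist.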

How the results depend on the processing

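Under the alternatives other than single left-out mice, 510 log2 differences of members stayed on their side of the threshold, 10 lost a call, 7 gained one and none reversed a call. Of the lost calls 6 were of Abcg2 in male liver, the contrast that chose the members. The tally also holds values of male liver and of the AL liver sets that stayed as they were. Nothing is read from either contrast. At an unadjusted p under 0.05 members called were 1 in female liver, 2 in male muscle, 2 in female muscle and 1 in female cortex, and genes called were 919, 5309, 1644 and 2069 there and 4400 in male cortex. By the same rule 4 members and 4527 genes were called for the difference between responses in muscle. For the AL sets in cortex these counts were 2 and 5240. DESeq2 called 8 genes in female liver, 83 in female muscle with 2 members, 2140 in male cortex, 60 in female cortex and 713 for the difference between responses in cortex. With no filter beyond 1 count, 0 members were called in male muscle, 1 for the difference between responses in muscle, 5 genes in female muscle and 220 for the difference in cortex. In 1 fit over both sets, 2 members and 38 genes were called in female muscle, 2044 genes in male cortex and 4 in female cortex. Without AL mouse 2 and IF mouse 10, 0 members were called in male muscle and 498 genes in male cortex. With the cortex library of AL mouse 1 kept, the counts were 294 genes for the diet in male cortex, 1326 for the sets of AL mice and 81 for the difference between responses. The cause of these changes was not tested. A replicate block called 0 members in male muscle, where Por had 0.58 on the log2 scale (adjusted p = 0.0563), 382 genes in male cortex and 0 in female cortex. Under the block the difference between responses in muscle was called for Abcb1a too, at -0.58 (adjusted p = 0.0352). The numbers were not taken to pair AL with IF mice, since at most 4 of 8 pairs correlated above 0.1 in any tissue and set, with medians from -0.142 to 0.091. Leaving out 1 mouse at a time gave 0 to 1 members and 2933 to 3740 genes in male muscle, and 2 to 3 members and 1950 to 2525 genes for the difference between responses in muscle. These refits, the male livers without IF mice 9 and 10 and levels without TMM scaling were chosen after seeing the data, and 120 of 120 group medians moved by less than 1 SD without that scaling. Low counts limited Nr1i2, Nr1i3 and Abcc2 outside liver, Abcc3 in muscle, Abcb1b in liver and Abcb1a in male AL liver.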

Other observations

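The cortex library of AL mouse 1, kept only in alternative fits, held members at levels within those of the other cortex libraries. On its plain CPM Por was at 94.0, Alas1 at 59.9, Abcb1a at 20.6, Abcg2 at 16.2, Ahr at 5.43, Abcb1b at 3.24 and Abcc3 at 2.48. Nr1i3 and Abcc2 were at 0.167 and 0.104 CPM, and Nr1i2 was at 0 counts.

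Choroid plexus markers varied widely between cortex libraries. The summed CPM of 4 choroid plexus genes, led by Ttr, ranged from 5.02 to 3199 in male AL, from 4.47 to 3490.3 in male IF, from 8.25 to 126 in female AL and from 3.97 to 4429 in female IF cortex. Its part in the members' cortex levels was not tested.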
